A study of Mus musculus with 12 samples.

Results

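Transforming growth factor beta (TGF-beta) signalling was described here through 10 genes in mouse bone marrow LSK cells and myeloid progenitors with and without FoxO transcription factors. The genes were the ligand Tgfb1, its latency protein Ltbp1, the receptors Tgfbr1, Tgfbr2 and Tgfbr3, the signal transducers Smad2, Smad3 and Smad4, and the inhibitors Smad7 and Skil. They were chosen by name as members of a pathway known for holding blood stem cells quiescent, with earlier results of these data known. Every probe set that the platform annotation paired with one of them was taken. That gave 25 of the 45101 probe sets on the array, each paired with 1 gene only. Of these, 20 passed the filter on low values, and each of the 10 genes kept at least 1 probe set, so that 10 of the 13732 genes tested are members.

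TGF-beta is secreted in a latent complex that binding proteins such as the Ltbp1 product tether to the matrix until the ligand is released. The active ligand brings together the type II receptor (Tgfbr2) and the type I receptor (Tgfbr1), with betaglycan (Tgfbr3) as a co-receptor that presents ligand, and the type I receptor phosphorylates Smad2 and Smad3, which enter the nucleus with Smad4. Smad7, an inhibitory Smad that acts on the receptor, and SnoN, the corepressor encoded by Skil, restrain the signal, and both genes are themselves known as early targets of TGF-beta. In bone marrow the pathway is known for slowing the cycling of stem cells.

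Expression was measured on 12 Affymetrix arrays, 3 for each of 4 groups: FoxO-deficient LSK cells (arrays 4 to 6), wild-type LSK cells (arrays 1 to 3), FoxO-deficient myeloid progenitors (arrays 10 to 12) and wild-type myeloid progenitors (arrays 7 to 9). LSK cells carry no lineage markers but do carry Sca-1 and Kit, and the blood stem cells lie within this fraction, whereas myeloid progenitors are their more restricted descendants. The deficient cells were sorted from Mx-Cre+; FoxO1/O3/O4LoxP/LoxP mice and the wild-type cells from Mx-Cre-; FoxO1/O3/O4LoxP/LoxP mice, and the labels' protocols describe the mice as pooled. All 4 groups therefore carried the floxed alleles and only the deficient groups carried Mx-Cre, a Cre transgene under an interferon-responsive promoter that acts in more tissues than blood. The age of the mice and the time since deletion are not given in the sources used here. Whether each array of a group had its own pool of mice is left unsaid in the labels. The p-values therefore reflect array-to-array spread alone, part or all of which may be technical.

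The mean intensity per array as deposited lay between 118.9 and 190.2. Wild-type LSK array 2 stood apart: its Gapdh control probe sets gave a 3′ over 5′ ratio of 344, against 1.77 to 2.37 on the other 11 arrays, and those of Actb gave 145, against 2.74 to 3.36. It stayed in the fits, and each member's call that changed without it is also given without it. The labelled cell types were checked against their markers. Of 10 HSC and LSK markers, 8 were lower in deficient myeloid progenitors than in deficient LSK cells and 9 in the wild-type comparison, and all 5 erythroid and 6 of 8 granulocyte-monocyte progenitor markers were higher in both. Of 7 mature neutrophil and monocyte markers, 1 was higher and 4 were lower in both. Of 11 megakaryocyte and platelet markers, 2 were lower in the deficient comparison, and 1 was higher and 3 lower in the wild-type one. In deficient LSK cells, 2 of 9 basophil, eosinophil and mast cell markers were called higher, beside 0.124% of all genes. Summed B cell markers read 1716 to 1790 there and 678 to 1090 in wild-type LSK cells, with 0 of 4 called. Among the targeted genes, Foxo4 averaged 85.8 in FoxO-deficient and 393 in wild-type LSK cells and 59.9 in FoxO-deficient and 330 in wild-type myeloid progenitors, with limma adjusted p of 0.00162 and 0.000114. Foxo1 averaged 27.2 in FoxO-deficient and 104.3 in wild-type LSK cells (log2 change -1.94, adjusted p = 0.263), and its change in myeloid progenitors was -0.90 (adjusted p = 0.609). The Foxo3 means were higher with the deletion than without it, at 2828 in FoxO-deficient and 2421 in wild-type LSK cells and 2414 in FoxO-deficient and 1860 in wild-type myeloid progenitors (adjusted p = 0.561 and 0.299), and whether their probe sets lie within the floxed exons is not known here.

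Values below are normalized intensities, and group means were averaged over 3 arrays as log2 values and turned back. A probe set's intensity depends on its own hybridization, so levels are compared between groups and never between genes. A change is the log2 of FoxO-deficient over wild-type cells, or of myeloid progenitors over LSK cells, with the standard error of the limma fit, and was called at a Benjamini-Hochberg adjusted p under 0.05 over all 13732 genes. A background limit between 5.14 and 13 was set on each array from bacterial control probe sets, and a probe set under it is described as not above background. In bulk samples of this kind, fewer cells of a type and less RNA per cell cannot be told apart.

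**Figure D1:**
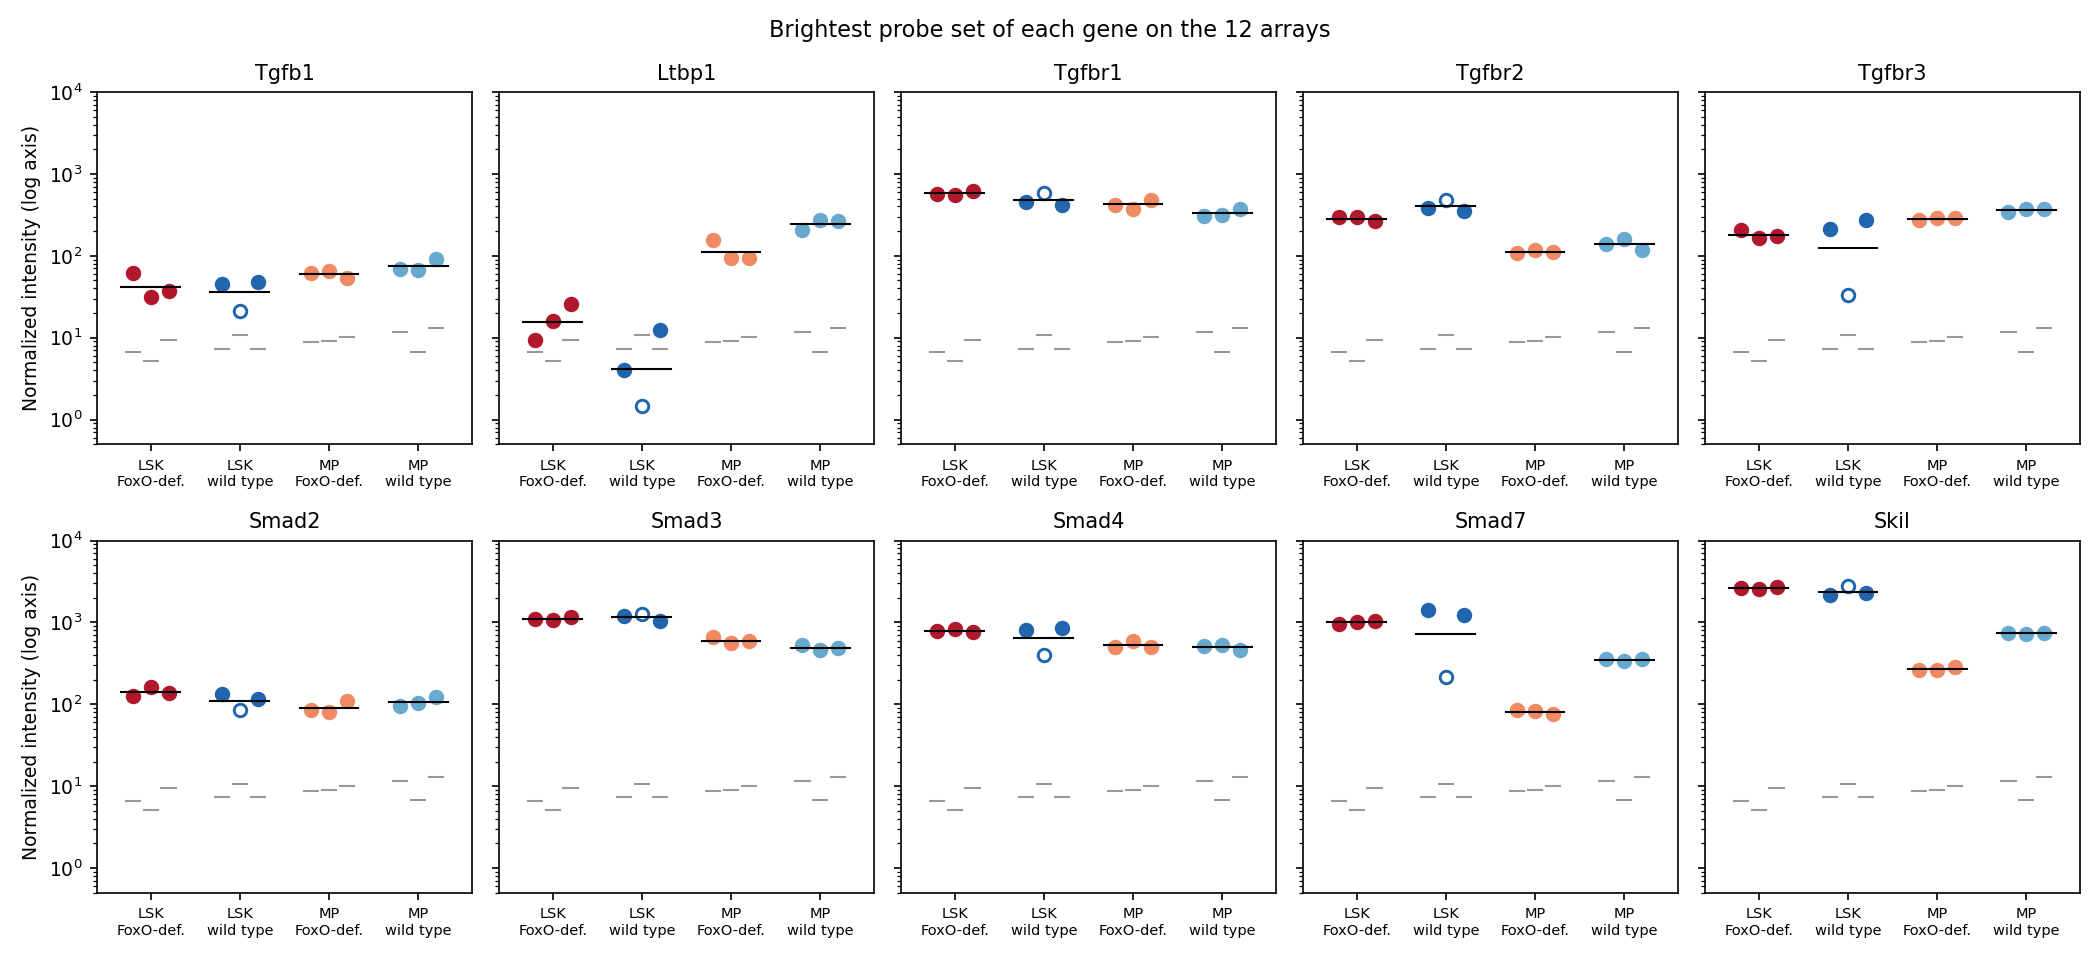
Normalized intensity (log axis) of the brightest probe set of each of the 10 genes on every array, with FoxO-deficient LSK cells, wild-type LSK cells, FoxO-deficient myeloid progenitors and wild-type myeloid progenitors from left to right in each panel. Points are arrays, black lines are means of 3 arrays (antilog of mean log2), grey ticks are each array's background limit, and open symbols mark wild-type LSK array 2; Ltbp1 is lowest in LSK cells, whereas Smad7 and Skil are lowest in FoxO-deficient myeloid progenitors.

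The plot of all arrays shows how the genes differed. Ltbp1 was near background in LSK cells and well above it in myeloid progenitors. Tgfbr2 and the brightest probe set of Smad3 were higher in LSK cells than in myeloid progenitors whatever the FoxO genotype. Skil, and with a wider error Smad7, were highest in LSK cells and lowest in FoxO-deficient myeloid progenitors, and Skil was the only member whose FoxO effect passed the test.

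The upstream sequences of Ltbp1, Tgfbr2 and Smad3, which differed between the cell types, are shown first. No transcription factor binding was measured, and these sequences are what a reader would need to follow these genes up. RefSeq promoter entries of build GRCm38.p6 were taken by symbol for 5 of the 10 genes (Tgfb1, Ltbp1, Tgfbr1, Tgfbr2 and Smad3). These have 7 annotated windows of 250 bases before a transcription start. No entry was found for Tgfbr3 or Skil. Smad2, Smad4 and Smad7 were left out of this step, so their upstream sequences were not searched for any of the letters below. Both Ltbp1 starts are given, at chr17:75005279-75005528 and chr17:75178531-75178780 on the plus strand, with Tgfbr2 at chr9:116175364-116175613 and Smad3 at chr9:63757995-63758244 on the minus strand, each read 5′ to 3′ towards the start. Capitals mark the Smad-binding letters CAGACA or, on the other strand, TGTCTG.
Ltbp1 start 1: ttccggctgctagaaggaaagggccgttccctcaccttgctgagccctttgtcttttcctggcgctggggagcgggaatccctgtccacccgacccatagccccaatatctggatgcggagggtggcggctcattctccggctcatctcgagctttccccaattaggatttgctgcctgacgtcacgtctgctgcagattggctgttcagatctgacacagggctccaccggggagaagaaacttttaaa
Ltbp1 start 2: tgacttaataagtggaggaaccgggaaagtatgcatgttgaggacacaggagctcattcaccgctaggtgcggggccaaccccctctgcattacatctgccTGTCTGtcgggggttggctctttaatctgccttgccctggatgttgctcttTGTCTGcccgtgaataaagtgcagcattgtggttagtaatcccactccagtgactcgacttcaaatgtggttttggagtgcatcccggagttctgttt
Tgfbr2: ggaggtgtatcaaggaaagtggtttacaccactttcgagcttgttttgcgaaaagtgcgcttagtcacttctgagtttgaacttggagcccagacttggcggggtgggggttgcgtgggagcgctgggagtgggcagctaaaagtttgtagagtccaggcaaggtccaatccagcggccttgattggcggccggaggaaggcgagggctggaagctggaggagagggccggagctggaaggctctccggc
Smad3: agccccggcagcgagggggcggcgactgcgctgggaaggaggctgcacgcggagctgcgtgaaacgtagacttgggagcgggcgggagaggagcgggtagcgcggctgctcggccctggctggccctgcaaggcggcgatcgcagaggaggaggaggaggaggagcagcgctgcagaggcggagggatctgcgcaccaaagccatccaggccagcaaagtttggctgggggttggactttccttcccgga

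The second Ltbp1 window held the Smad letters at 2 places, beginning 149 and 98 bases before the start, and the windows of Tgfbr2, Smad3 and the first Ltbp1 start held none. A window of Tgfbr1 that is not shown held them once, 203 bases before its second start. Over all 32536 promoter windows of this length, 17% held the Smad letters on either strand. Neither the FoxO letters GTAAACA, found in 3.17% of all windows, nor the GATA letters AGATAA, found in 9.97%, occurred on either strand in any of the 7 windows, so no motifs overlapped there. A match describes the letters only, and no match says only that these letters are not in this window. Whether the probe sets tell transcripts from the 2 Ltbp1 starts apart was not checked.

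Ltbp1 was measured by 3 probe sets, of which 1448870_at passed the filter and the other 2 were not above background on any array. In LSK cells this probe set read 9.38, 15.9 and 25.8 on the FoxO-deficient arrays 4, 5 and 6, against 4.04, 1.48 and 12.3 on the wild-type arrays 1, 2 and 3. In myeloid progenitors it read 158, 94.1 and 94.3 on the FoxO-deficient arrays 10, 11 and 12, against 208, 273 and 264 on the wild-type arrays 7, 8 and 9. All 6 myeloid progenitor arrays lay above all 6 LSK arrays, the 3 deficient LSK arrays were above background, and of the wild-type LSK arrays only array 3 was.

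Deficient myeloid progenitors averaged 112 for Ltbp1 and deficient LSK cells 15.7, a log2 change of 2.84 ± 0.66 (limma adjusted p = 0.014, n = 3 each). That call was lost without array 4 (2.47, adjusted p = 0.057) and without array 10 (2.59, adjusted p = 0.0547). Wild-type myeloid progenitors averaged 247 and wild-type LSK cells 4.18, a log2 change of 5.88 ± 0.66 (adjusted p = 0.000241). Because the LSK value was above background on 1 of 3 arrays, the fold is given as a bound, at least 24.9-fold higher in wild-type myeloid progenitors. Without array 2, wild-type LSK cells averaged 7.05 and the change was 5.13 ± 0.54 (adjusted p = 0.000215).

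The FoxO effect on Ltbp1 passed the test in neither cell type. In LSK cells, where the groups overlapped, the fitted change was 1.90 ± 0.66 (adjusted p = 0.338), and 1.15 ± 0.54 without array 2 (adjusted p = 0.36). Wild-type LSK cells were above background on 1 of 3 arrays, and raising the others to the background limit gave a fold of 1.58 between the means. That value takes no account of the spread between arrays. The size of the fitted value and of the difference below depends on values under background. It was -1.14 ± 0.66 in myeloid progenitors (adjusted p = 0.546), where all 3 deficient arrays lay below all 3 wild-type arrays. The difference between these effects was -3.04 ± 0.93 (adjusted p = 0.238), and -2.29 ± 0.72 without array 2 (adjusted p = 0.138). With an offset of 16, which damps dim values, the effect in myeloid progenitors (-1.04, adjusted p = 0.0486) and the difference (-1.64, adjusted p = 0.046) passed.

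Tgfb1, the ligand, was measured by 2 probe sets, both kept. The brighter, 1420653_at, read 62.3, 31.7 and 37.3 in FoxO-deficient and 45.1, 21.0 and 48.5 in wild-type LSK cells, then 60.9, 64.5 and 52.9 in FoxO-deficient and 69.3, 67.8 and 92.3 in wild-type myeloid progenitors. The lowest value was that of array 2, the wild-type myeloid progenitor arrays were the 3 highest, and deficient LSK cells overlapped both wild-type LSK cells and deficient myeloid progenitors, which did not overlap each other. The change from LSK cells to myeloid progenitors was 0.50 ± 0.35 in deficient cells (adjusted p = 0.369) and 1.08 ± 0.35 in wild-type cells (adjusted p = 0.053), and did not pass the test. The wild-type change passed with an offset of 16 (0.81), median centring (1.21), the 60th percentile filter (1.08), a trended prior (1.08) and without array 3 (1.30) or 4 (1.08), with adjusted p of 0.0263 to 0.0441. It was 0.69 without array 2 (adjusted p = 0.0849). The dimmer probe set, 1445360_at, had the opposite sign: it averaged 7.91 in deficient myeloid progenitors and 21.4 in deficient LSK cells, a change of -1.43 ± 0.35 that passed over all kept probe sets (adjusted p = 0.022), although it was above background on 1 of the 3 deficient myeloid progenitor arrays. No direction can therefore be given for Tgfb1 between the cell types. Neither probe set passed for the FoxO effect, which for the brighter was 0.23 ± 0.35 in LSK cells and -0.35 ± 0.35 in myeloid progenitors.

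The type II receptor gene Tgfbr2, which binds the ligand first, was measured by 3 probe sets, and 1426397_at was the only one kept. It read 295, 295 and 267 in FoxO-deficient LSK cells, against 387, 485.5 and 348 in wild-type LSK cells. It read 107, 118.4 and 112 in FoxO-deficient myeloid progenitors, against 141, 158 and 117.7 in wild-type myeloid progenitors. The order of the groups was wild-type LSK, deficient LSK, wild-type and deficient myeloid progenitors, and only the last 2 overlapped.

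Tgfbr2 fell in myeloid progenitors relative to LSK cells in both genotypes. The change was -1.35 ± 0.17 in deficient cells, 112 against 285 (adjusted p = 0.000532), and -1.55 ± 0.17 in wild-type cells, 138 against 403 (adjusted p = 0.000241). These calls were kept under all alternatives and without each array in turn. The FoxO effect in LSK cells was -0.50 ± 0.17 and did not pass (adjusted p = 0.341; unadjusted p = 0.0173), although Tgfbr2 was the only member whose deficient LSK arrays all lay on 1 side of the wild-type ones. Groups that did not overlap were found for 16.8% of all genes tested in LSK cells, so 1 of 10 members is not above that share. Without array 2 the effect was -0.36 ± 0.14 (adjusted p = 0.257), and in myeloid progenitors it was -0.30 ± 0.17 (adjusted p = 0.553).

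Tgfbr1, the type I receptor kinase, had 3 kept probe sets. The brightest, 1420895_at, read 561, 558 and 616 in FoxO-deficient and 448, 589 and 412 in wild-type LSK cells, then 422, 374.5 and 483 in FoxO-deficient and 309, 319 and 371.5 in wild-type myeloid progenitors. Group means ran in the order deficient LSK (578), wild-type LSK (477), deficient myeloid progenitors (424) and wild-type myeloid progenitors (332), and only the last 2 of these neighbours did not overlap. The FoxO effect was 0.28 ± 0.18 in LSK cells (adjusted p = 0.562; 0.43 ± 0.14 and 0.187 without array 2) and 0.35 ± 0.18 in myeloid progenitors (adjusted p = 0.46). The other 2 probe sets also had a positive sign in both, with overlapping groups. Of these, 1420893_a_at was above background on 1 deficient LSK array and on no array of the other groups, so its sign carries little information. From LSK cells to myeloid progenitors the change was -0.45 ± 0.18 in deficient cells (adjusted p = 0.116) and -0.52 ± 0.18 in wild-type cells (adjusted p = 0.066). The change in deficient cells passed without array 2 (-0.45 ± 0.12, adjusted p = 0.0206), with array weights (0.0114) and with only the groups compared (0.0471). The change in wild-type cells passed with an offset of 16 (0.0406), the 60th percentile filter (0.0354), a trended prior (0.0351) and without array 3 (0.0488). With median centring the changes shrank to -0.09 in deficient and -0.22 in wild-type cells (adjusted p = 0.8 and 0.521). With averaged probe sets the adjusted p in wild-type cells was 0.761.

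Tgfbr3, the co-receptor, read 205, 163 and 177 in FoxO-deficient LSK cells with its brighter probe set 1433795_at, against 210.5, 33.2 and 275 in wild-type LSK cells. It read 272, 288 and 286 in FoxO-deficient myeloid progenitors, against 341, 374 and 375 in wild-type myeloid progenitors. The value of 33.2 is that of array 2, and it set the sign of the FoxO effect in LSK cells, which was 0.54 ± 0.63 with that array and -0.41 ± 0.14 without it (adjusted p = 0.728 and 0.223). From LSK cells to myeloid progenitors the change was 0.64 ± 0.63 in deficient cells and 1.55 ± 0.63 in wild-type cells, and neither passed (adjusted p = 0.538 and 0.113). Without array 2 they were 0.64 ± 0.13 and 0.59 ± 0.14, and both passed (adjusted p = 0.00499 and 0.0133). The wild-type change also passed without array 3 (2.12, adjusted p = 0.0391), and the deficient one with array weights (0.0274) and with only the groups compared (0.0125). The dimmer kept probe set, 1425620_at, read 0.883 on array 2, and its groups overlapped in both comparisons. It gave 0.27 ± 1.05 in deficient and 1.90 ± 1.05 in wild-type cells (adjusted p = 0.909 and 0.272 over all kept probe sets). With averaged probe sets the deficient change did not pass (adjusted p = 0.757).

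Smad3, a receptor-activated transducer, had 3 probe sets. The brightest, 1454960_at, read 1109, 1077 and 1157 in FoxO-deficient LSK cells, against 1184, 1278 and 1051 in wild-type LSK cells. It read 661, 555 and 593 in FoxO-deficient myeloid progenitors, against 524, 461 and 493 in wild-type myeloid progenitors. The LSK groups overlapped, every LSK array lay above every myeloid progenitor array, and the deficient myeloid progenitor arrays lay above the wild-type ones.

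By its brightest probe set, Smad3 fell in myeloid progenitors relative to LSK cells. The change was -0.89 ± 0.14 in deficient cells (601 against 1114, adjusted p = 0.002) and -1.25 ± 0.14 in wild-type cells (492 against 1168, adjusted p = 0.000276). The call in deficient cells was lost when arrays were centred on their medians (-0.51, adjusted p = 0.0749), and the call in wild-type cells was lost when kept probe sets were averaged (-0.34, adjusted p = 0.318). Median centring also shifts all genes: the median change of all genes was then 0.31 in the deficient and 0.19 in the wild-type comparison, against 0.11 and 0.02 with quantile normalization. Relative to that median, Smad3 changed by -0.82 and -1.16 with median centring and by -1 and -1.26 with quantile normalization. The FoxO effect on Smad3 was -0.07 ± 0.14 in LSK cells (adjusted p = 0.851) and 0.29 ± 0.14 in myeloid progenitors (adjusted p = 0.448). A dimmer Smad3 probe set, 1450472_s_at, had the opposite sign in myeloid progenitors, with 10.2, 4.96 and 3.84 in FoxO-deficient and 14.9, 16.5 and 15.0 in wild-type cells. Its change of -1.42 ± 0.36 did not pass over all kept probe sets (adjusted p = 0.101), and 1 of its 3 deficient arrays was above background. From LSK cells to myeloid progenitors, this probe set had the opposite sign in wild-type cells, at 15.5 against 10.5 (0.56 ± 0.36, adjusted p = 0.338), with no overlap. In deficient cells its sign was that of the brightest (-0.66 ± 0.36, adjusted p = 0.262).

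Smad2, the other receptor-activated transducer here, did not pass the test in any comparison under the settings described above. Its brighter probe set 1420634_a_at read 128, 163 and 136 in FoxO-deficient and 135, 86.4 and 115 in wild-type LSK cells, then 85.7, 80.4 and 108.5 in FoxO-deficient and 95.2, 103 and 124 in wild-type myeloid progenitors. Every neighbouring pair in the order of the 4 means overlapped. The FoxO effect was 0.36 ± 0.21 in LSK cells (0.19 ± 0.18 without array 2) and -0.24 ± 0.21 in myeloid progenitors (adjusted p = 0.532 and 0.772), and the dimmer probe set had the opposite sign in myeloid progenitors. The change from LSK cells to myeloid progenitors was -0.64 ± 0.21 in deficient cells (adjusted p = 0.0619) and -0.04 ± 0.21 in wild-type cells (adjusted p = 0.916). The change in deficient cells passed without array 2 (adjusted p = 0.015), with an offset of 16 (0.0407), the 60th percentile filter (0.0344), array weights (0.00735) and only the groups compared (0.0349). With median centring it was -0.39 and did not pass (adjusted p = 0.24).

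Smad4, the common partner of the activated Smads, was measured by 3 kept probe sets. The brightest, 1422486_a_at, read 789, 827 and 754.5 in FoxO-deficient and 806, 403 and 854.5 in wild-type LSK cells, then 498, 594 and 498 in FoxO-deficient and 515, 535 and 465 in wild-type myeloid progenitors. Apart from the 403 of array 2, all LSK arrays lay above all myeloid progenitor arrays. The change from LSK cells was -0.58 ± 0.26 in deficient cells and -0.37 ± 0.26 in wild-type cells (adjusted p = 0.158 and 0.36), and without array 2 it was -0.58 ± 0.10 and -0.72 ± 0.12 (adjusted p = 0.00281 and 0.00197). Both also passed with array weights (adjusted p = 0.00338 and 0.00439), and the deficient one with only its own groups (0.0147). With median centring the changes shrank to -0.22 in deficient and -0.02 in wild-type cells (adjusted p = 0.565 and 0.972). Relative to the median of all genes they were then -0.54 and -0.2. A second probe set, 1422487_at, averaged 322 in wild-type myeloid progenitors and 582 in wild-type LSK cells, and passed with array 2 included (-0.85 ± 0.21, adjusted p = 0.0237 over all kept probe sets). In deficient cells that probe set did not pass (-0.49 ± 0.21, adjusted p = 0.152). The third, 1422485_at, passed in neither, at -0.55 ± 0.43 in deficient and -0.29 ± 0.43 in wild-type cells (adjusted p = 0.461 and 0.71). The FoxO effect was 0.28 ± 0.26 in LSK cells and 0.07 ± 0.26 in myeloid progenitors, and neither passed (adjusted p = 0.669 and 0.972).

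**Figure D2:**
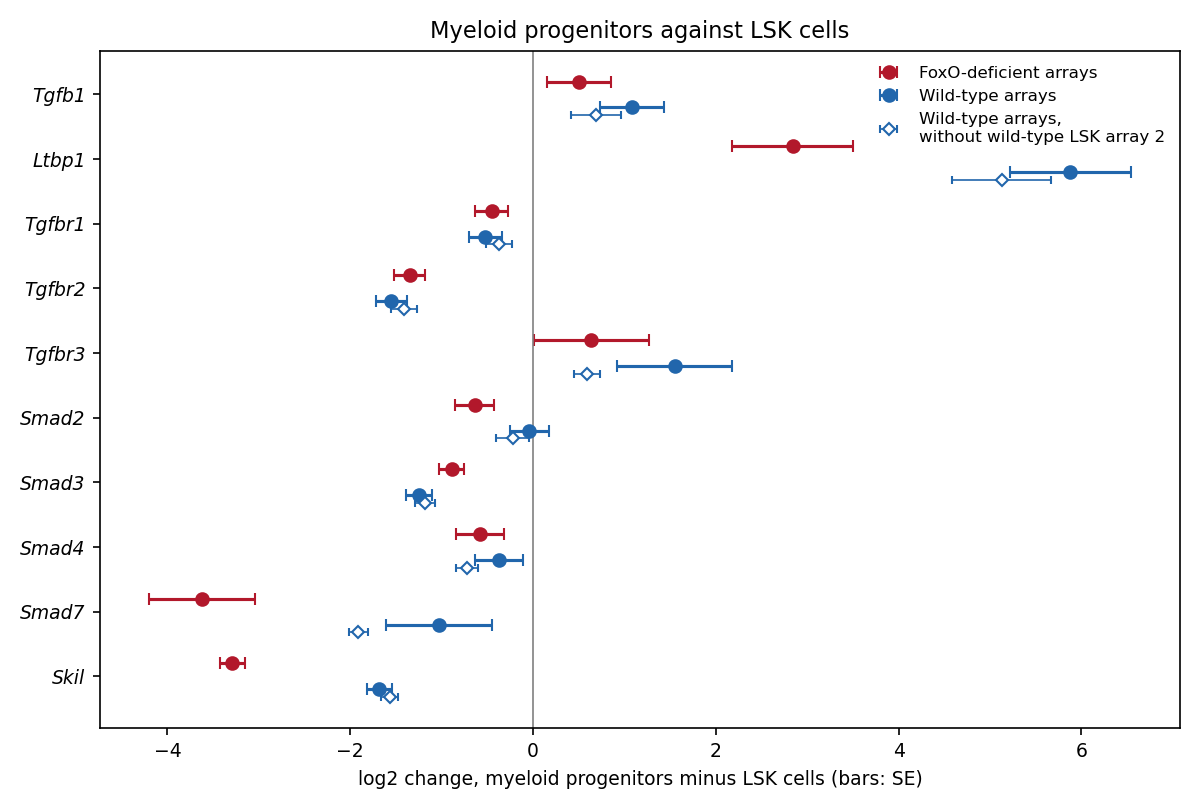
Log2 change from LSK cells to myeloid progenitors for each gene (x axis) in FoxO-deficient cells (red), wild-type cells (blue) and wild-type cells without wild-type LSK array 2 (open diamonds); bars are standard errors of the limma fit. Ltbp1 lies furthest to the right at 2.84 and 5.88, and Smad7 and Skil lie furthest to the left in FoxO-deficient cells at -3.62 and -3.29.

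In the comparison of FoxO-deficient myeloid progenitors with FoxO-deficient LSK cells, 1 member rose (Ltbp1) and 4 fell (Tgfbr2, Smad3, Smad7 and Skil). Of all genes tested, 19.6% were called in that comparison, 10.2% higher and 9.39% lower, and 5 of 10 members is above that share. The members were chosen with earlier results of these data known, so their counts beside such shares, here and below, are description only. The groups did not overlap for 9 members, beside 52.4% of all genes. In the wild-type comparison, 1 member rose (Ltbp1) and 3 fell (Tgfbr2, Smad3 and Skil), beside 21.4% of all genes called, 9.95% higher and 11.5% lower, and 7 members did not overlap, beside 35.8%. With median centring, higher genes made up 69.3% of all calls in the deficient comparison and 64.3% in the wild-type one, against 52.2% and 46.5% with quantile normalization. Without array 2, 9 members were called in the deficient comparison (all except Tgfb1), beside 37.3% of all genes, and 7 in the wild-type one, beside 34%. Without array 3, 7 were also called in the wild-type comparison, and without array 4 or array 10 only 4 in the deficient one.

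Skil, which encodes the corepressor SnoN, was the member with the smallest adjusted p in every comparison except that of FoxO-deficient with wild-type LSK cells. Its brighter probe set, 1452214_at, read 2602, 2566.5 and 2712 in FoxO-deficient LSK cells, against 2135.5, 2763 and 2258 in wild-type LSK cells. It read 259.9, 264 and 284 in FoxO-deficient myeloid progenitors, against 736, 731 and 749 in wild-type myeloid progenitors. The LSK groups overlapped, the wild-type myeloid progenitor arrays lay below all LSK arrays, and the deficient ones lay lowest, well below the wild-type ones.

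Skil fell in FoxO-deficient myeloid progenitors by 1.46 on the log2 scale relative to wild-type ones, 269 against 739, a change of -1.46 ± 0.14 (adjusted p = 0.000499, n = 3 each). In LSK cells the effect was 0.15 ± 0.14, 2626 against 2371 (adjusted p = 0.672), and 0.26 ± 0.09 without array 2 (adjusted p = 0.211). The difference between the effects was -1.60 ± 0.20 and passed the test (adjusted p = 0.00487). From LSK cells to myeloid progenitors, Skil changed by -3.29 ± 0.14 in deficient cells (adjusted p = 6.69e-07) and by -1.68 ± 0.14 in wild-type cells (adjusted p = 5.15e-05).

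The call of Skil in myeloid progenitors was kept without each array in turn (-1.50 to -1.43, adjusted p up to 0.00478). It was lost when its kept probe sets were averaged (-1.07, adjusted p = 0.346). The second probe set, 1422054_a_at, was not above background on any deficient myeloid progenitor array and was above it on 2 of 3 wild-type ones. The difference between the cell types was lost in the same setting (-1.44, adjusted p = 0.454) and with median centring (-1.40, adjusted p = 0.152). Relative to the median of all genes, that difference was -1.49 with median centring and -1.67 with quantile normalization.

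Smad7, the inhibitory Smad, was measured by 2 probe sets, both above background on all 12 arrays. The brighter, 1423389_at, read 967, 999.9 and 1036 in FoxO-deficient LSK cells, against 1406, 213 and 1238 in wild-type LSK cells. It read 85.1, 82.8 and 75.8 in FoxO-deficient myeloid progenitors, against 357.5, 342 and 355 in wild-type myeloid progenitors. The myeloid progenitor groups were far apart with little spread, and among the LSK arrays only array 2 stood away from the rest.

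On array 2 the probe sets of Smad7 disagreed in direction: the brighter read 213 there, against 1406 and 1238 on arrays 1 and 3, and the dimmer, 1443771_x_at, read 1204, against 136 and 306. That 1 array gave the brighter probe set a log2 standard deviation of 1.52 in wild-type LSK cells, against 0.05 in deficient LSK cells, 0.09 in deficient and 0.03 in wild-type myeloid progenitors. The fit shares 1 error over the 4 groups, so the error of every Smad7 change includes it. Array weights gave array 2 a weight of 0.0593, and averaged probe sets mixed its low and high values. Passing in these settings, given below, is therefore not separate support beside leaving array 2 out.

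The FoxO effect on Smad7 in myeloid progenitors was -2.11 ± 0.58, with group means of 81.1 in FoxO-deficient and 351 in wild-type cells, and did not pass (adjusted p = 0.118). Without array 2 the change was -2.11 ± 0.09 and passed (adjusted p = 4.63e-06), and it also passed when only the 2 myeloid progenitor groups were fitted (adjusted p = 0.00149), with array weights (7.91e-05) and with its kept probe sets averaged (0.000412). The dimmer probe set read 27.6, 24.6 and 24.2 in FoxO-deficient and 75.1, 157 and 113 in wild-type myeloid progenitors, a change of -2.11 ± 0.65 that did not pass over all kept probe sets (adjusted p = 0.185), with no overlap between the groups. In LSK cells the effect was 0.48 ± 0.58 with array 2 and -0.40 ± 0.10 without it (adjusted p = 0.737 and 0.105), so no direction is given. The difference between the effects was -2.59 ± 0.81 (adjusted p = 0.25), and -1.72 ± 0.13 without array 2 (adjusted p = 0.000344). It also passed with averaged probe sets (-2.36, adjusted p = 0.0031) and with array weights (-1.80, adjusted p = 0.00582).

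From LSK cells to myeloid progenitors, Smad7 changed by -3.62 ± 0.58 in deficient cells and passed the test (adjusted p = 0.00183). In wild-type cells it changed by -1.03 ± 0.58 (adjusted p = 0.241), and without array 2 by -1.91 ± 0.10 (adjusted p = 8.02e-06). It also passed there with averaged probe sets (-1.39, adjusted p = 0.00114) and with array weights (-1.82, adjusted p = 0.000146). Without array 2, wild-type LSK cells averaged 1319.

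**Figure D3:**
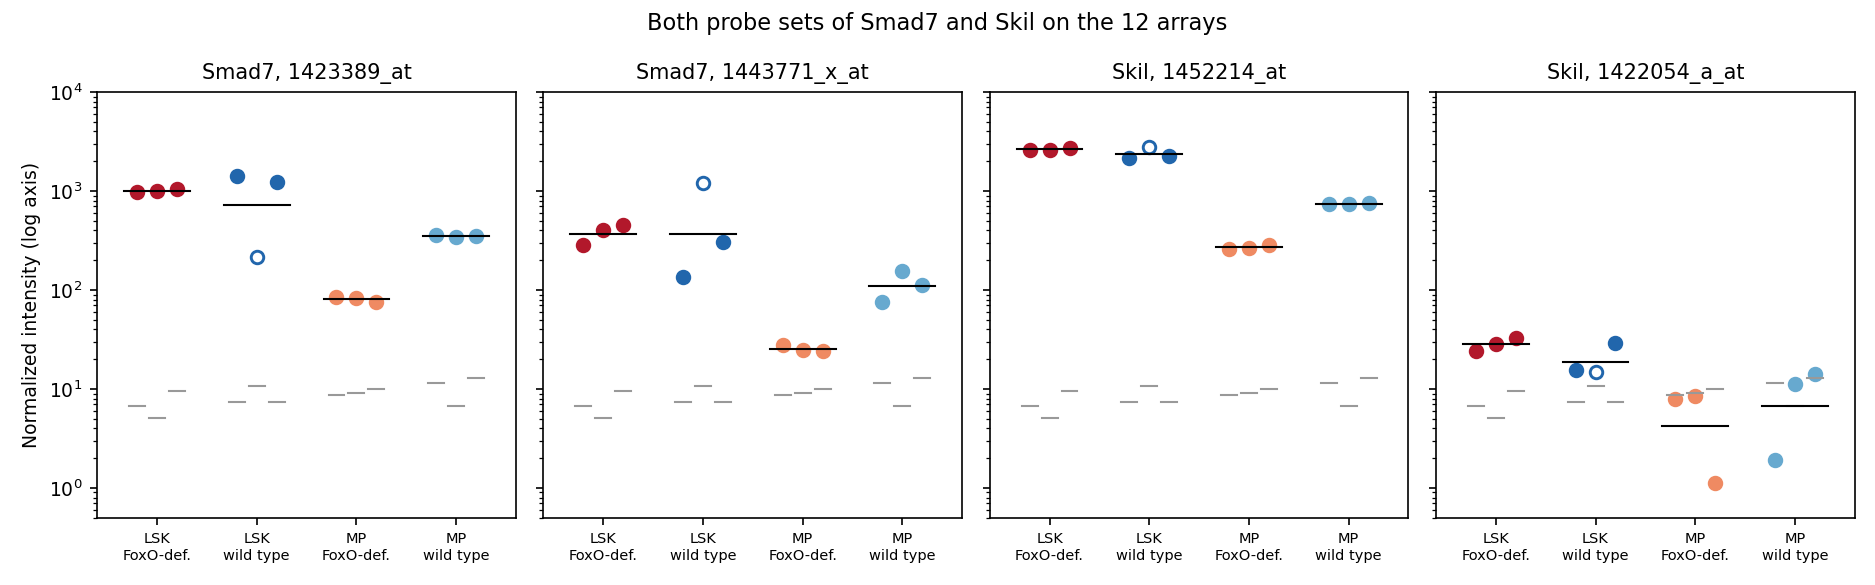
Normalized intensity (log axis) of both probe sets of Smad7 and both of Skil on every array, with the groups in the same order and the same symbols as in the plot of all 10 genes. The 3 FoxO-deficient myeloid progenitor arrays lie below the 3 wild-type ones in both Smad7 panels and in the brighter Skil panel, and the open symbol of array 2 is low in the first Smad7 panel (213) and high in the second (1204).

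Over the 10 members, the FoxO effect in myeloid progenitors was called for 1, Skil, which was lower. Of all genes tested, 1.84% were called there, 0.757% as higher and 1.09% as lower, so 1 of 10 is above that share by a single gene. Groups did not overlap for 7 members, beside 30.8% of all genes, and the 7 were Tgfb1, Ltbp1, Tgfbr1, Tgfbr3, Smad3, Smad7 and Skil. The median change was -0.33 over the members and 0.04 over all genes tested. Without array 2, 2 members were called (Smad7 and Skil, both lower), beside 8.53% of all genes.

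In LSK cells, limma called the FoxO effect for 0 of 10 members, beside 0.269% of all genes tested, and 2 had an unadjusted p under 0.05 (Ltbp1 and Tgfbr2). The median change was 0.28 over the members and -0.04 over all genes, with 8 of 10 signs positive. Of these 8, the signs of Tgfb1, Tgfbr3, Smad4 and Smad7 turned without array 2, and still 0 members were called, beside 0.903% of all genes. The difference of the FoxO effect between the cell types was called for 1 member, Skil, beside 0.859% of all genes, 0.568% of all being called lower. Without array 2 it was called for Smad7 and Skil, beside 3.13%, and without array 3 for Skil and Ltbp1 (-3.82, adjusted p = 0.0496 for Ltbp1). Lower genes outnumbered higher ones among all calls of that difference, and higher genes made up 33.9% with quantile normalization and 23.6% with median centring.

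**Figure D4:**
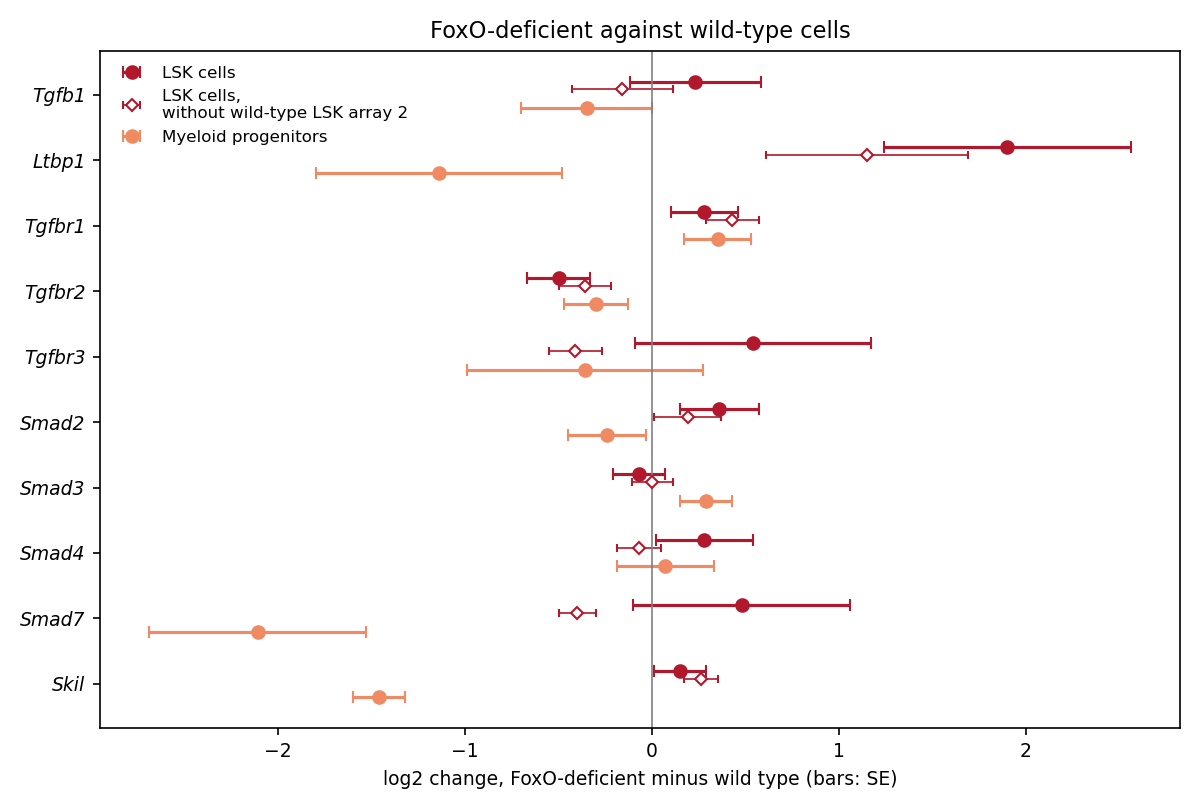
Log2 change of FoxO-deficient over wild-type cells for each gene (x axis) in LSK cells (dark red), in LSK cells without wild-type LSK array 2 (open diamonds) and in myeloid progenitors (orange); bars are standard errors of the limma fit. Smad7 and Skil lie at -2.11 and -1.46 in myeloid progenitors and at 0.48 and 0.15 in LSK cells, where Smad7 moves to -0.40 without array 2.

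Immediate-early genes, which are switched on within minutes of stimulation or of dissociating a tissue, moved in the same arrays as Skil and Smad7. The 28 such genes examined were listed with earlier results of these data known. Of these, 27 were called lower in FoxO-deficient than in wild-type myeloid progenitors, beside 1.09% of all genes tested. In LSK cells 0 were called, beside 0.269% of all genes. The median change of the 28 genes in myeloid progenitors was -3.87, beside 0.04 over all genes. Their summed intensity was 2983 to 3078 in FoxO-deficient and 25912 to 26673 in wild-type myeloid progenitors, and 41016 to 41861 in FoxO-deficient and 37475 to 37920 in wild-type LSK cells. Fosb, Egr3, Atf3, Nr4a1, Nr4a3, Ptgs2, Ccl3 and Ccl4 were not above background on any FoxO-deficient myeloid progenitor array. The part of the immediate-early genes in the results on Skil, Smad7 and the other pathway genes below was not tested.

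The genes whose log2 values over the 12 arrays were most like those of each called member were taken as the 3 with the highest Pearson r. For Skil they were Vegfa, Ctla2a and Nr4a2 (r = 0.993 each), and Nr4a2, an immediate-early nuclear receptor gene, averaged 55.2 in FoxO-deficient and 280.1 in wild-type myeloid progenitors. For Smad7 they were Csrnp1 (0.997), Atf4 (0.994) and Clk1 (0.992), and Csrnp1 averaged 35.3 in FoxO-deficient and 224 in wild-type myeloid progenitors. For Tgfbr2 they were Jakmip1 (0.990), Socs2 (0.985) and Cnrip1 (0.983), for Smad3 they were Bmpr2 (0.991), Ifitm3 (0.990) and Pvr (0.987), and for Ltbp1 they were Pla2g12a (0.990), Ppp1ca (0.983) and Cse1l (0.976). The 12 points share 4 groups and include array 2. These values therefore reflect the order of groups together with the value on array 2, which stood apart for Smad7.

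The rest of the pathway was described through 99 further genes in 6 lists, of which 77 were measured. In myeloid progenitors, the FoxO effect was called for 6 of the 77, 1 higher and 5 lower, beside 1.84% of all genes, and the median change was -0.15. Of these, 5 belonged to the 18 measured genes known to respond to TGF-beta in other cells, and 1, Thbs1, to the 11 genes of latency and activation. Of the 9 other ligands, 10 other receptors, 12 other Smads and partners and 17 corepressors, inhibitors and ubiquitin ligases, 0 were called by limma in that comparison.

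Bhlhe40, a repressor gene inducible by TGF-beta among other stimuli, read 13.7, 11.5 and 19.1 in FoxO-deficient myeloid progenitors, against 185.7, 115 and 185.5 in wild-type ones (-3.46 ± 0.30, adjusted p = 0.000219). Thbs1, whose product thrombospondin can release TGF-beta from its latent complex, read 17.5, 9.04 and 18.4, against 114, 228 and 162 (-3.50 ± 0.62, adjusted p = 0.0216), and 2 of its 3 deficient arrays were above background. Cdkn1a, the cell cycle inhibitor p21, read 30.4, 34.9 and 34.1, against 115, 109.5 and 115 (-1.77 ± 0.30, adjusted p = 0.0157). In each of these genes the deficient arrays lay well below the wild-type ones.

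Klf10, a TGF-beta-inducible early gene, averaged 993 in FoxO-deficient and 1934.5 in wild-type myeloid progenitors (-0.96 ± 0.13, adjusted p = 0.00431). Tsc22d1, another TGF-beta-inducible gene, averaged 760.3 in FoxO-deficient and 1299.9 in wild-type myeloid progenitors (-0.77 ± 0.16, adjusted p = 0.0494). Myc, a growth-promoting gene that TGF-beta is known to repress, read 292, 315 and 383 in FoxO-deficient myeloid progenitors, against 158, 182 and 151 in wild-type ones, and rose by 1.01 ± 0.18 (adjusted p = 0.0191). In LSK cells limma called 0 of the 77 genes, with or without array 2. In myeloid progenitors 17 of the 77 were called without array 2, 5 higher and 12 lower, beside 8.53% of all genes in that setting, 3 without array 8 or 10, and 2 without array 7, 9, 11 or 12. The difference between the cell types was called for Bhlhe40 (-3.79 ± 0.42), Thbs1 (-4.93 ± 0.88) and Myc (1.45 ± 0.25), with adjusted p of 0.00224, 0.0346 and 0.0291, and for 11 genes without array 2, beside 3.13% of all genes, 2 without array 1 or 3 and 1 without any other array.

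**Figure D5:**
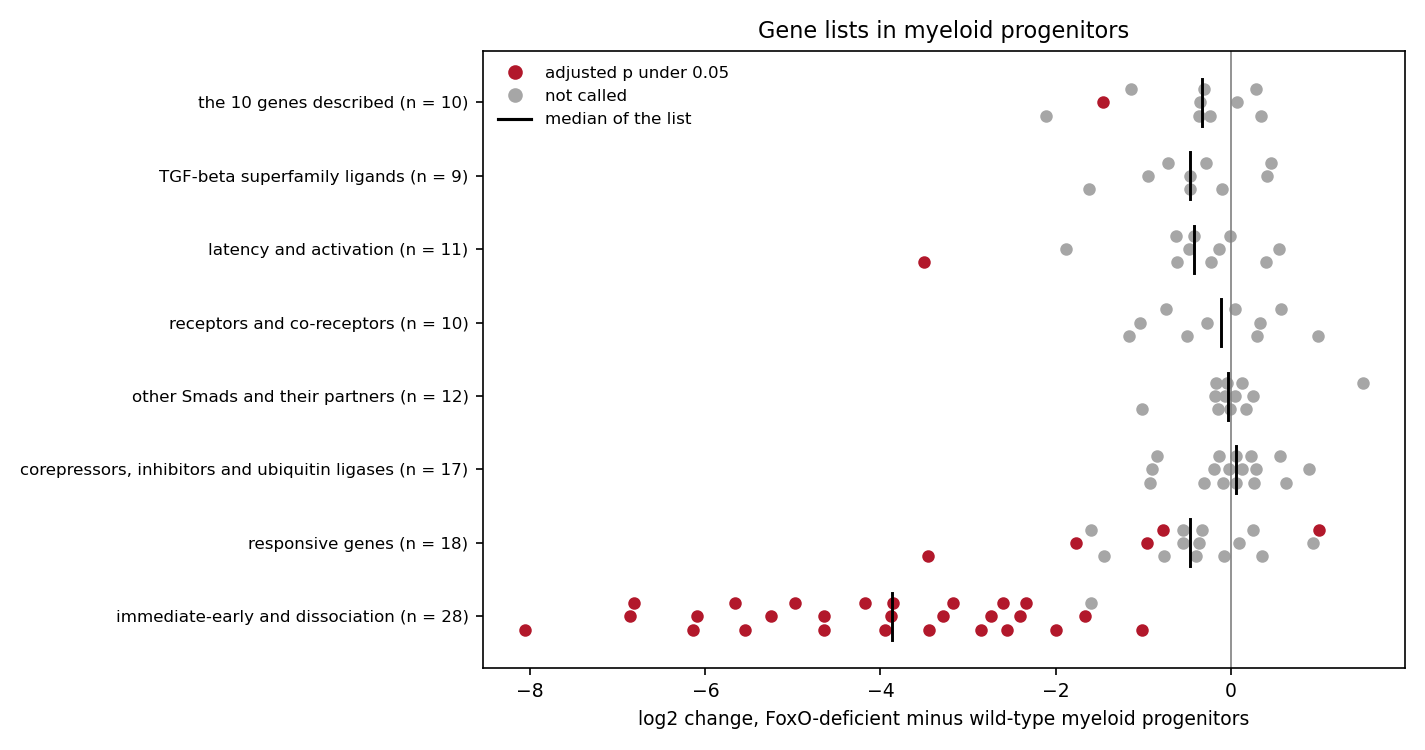
Log2 change of FoxO-deficient over wild-type myeloid progenitors (x axis) for the 10 genes, the 6 lists of other pathway genes and the immediate-early genes. Each point is a measured gene, red where the adjusted p was under 0.05, and black bars are list medians; the red points of the pathway lists lie in latency and activation (Thbs1) and among the responsive genes, whereas 27 of 28 immediate-early genes are red.

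Between the cell types, 26 of the 77 were called in FoxO-deficient cells, 5 higher and 21 lower in myeloid progenitors, and 25 in wild-type cells, 3 higher and 22 lower. Of all genes tested, 19.6% were called in deficient cells, 9.39% as lower, and 21.4% in wild-type cells, 11.5% as lower. The median change was -0.65 in deficient and -0.46 in wild-type cells, beside 0.11 and 0.02 over all genes. Without array 5 or 10, 16 and 17 of the 77 were called in deficient cells. Of the 18 responsive genes, 2 were higher and 10 lower in deficient cells, and 0 were higher and 9 lower in wild-type cells. Smad1 and Bmpr2, a transducer and a receptor of the related BMP branch, were lower in myeloid progenitors in both comparisons. Bmpr2 averaged 371 in deficient and 292 in wild-type myeloid progenitors, against 692 in deficient and 759 in wild-type LSK cells. Smad1 averaged 810.4 in deficient and 681.5 in wild-type myeloid progenitors, against 1239.5 in deficient and 1507 in wild-type LSK cells. Gdf3, a ligand of the superfamily, was higher in both, at 91.7 in deficient and 126 in wild-type myeloid progenitors, against 21.9 in deficient and 25.9 in wild-type LSK cells. Itgav, an integrin subunit that takes part in activating latent TGF-beta, was lower in wild-type myeloid progenitors than in wild-type LSK cells, at 476 against 1091 (-1.20 ± 0.16, adjusted p = 0.000707).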

How the data were processed

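The values are intensities on a linear scale as deposited by the authors, 1 per probe set and array, from Affymetrix Mouse Genome 430 2.0 arrays. Per the labels' protocols, RNA was amplified and biotin-labelled with the NuGEN Ovation system in triplicate. No source used here names the summarisation software. The deposited array medians lay between 8 and 13.5. After adding an offset of 0.6 (the 10th percentile of the whole table), the deposited intensities were put on the log2 scale and the arrays quantile normalized. Changes are on that scale, which understates the changes of dim genes, and printed normalized intensities include the offset.

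Of the probe sets, 34945 had 1 gene symbol, 932 several and 9160 none, and 64 were controls. Symbols were updated for 34741 through a RefSeq table of GRCm38.p6. Probe sets were kept where 3 or more arrays had them above that array's 40th percentile, and a gene was represented by its brightest kept probe set. Adjusted p-values of other probe sets come from a second fit over all 31779 kept probe sets. The background limit was the highest normalized intensity among 27 bacterial control probe sets. Where the dimmer group was above it on under 3 arrays, a fold is a lower bound, for which dim arrays under the limit were first raised to it. That bound concerns the group means and takes no account of the spread between arrays.

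All 12 arrays entered a limma 3.58.1 fit (R 4.3.3) of the 4 group means (two-sided, 8 residual degrees of freedom per gene), and 5 contrasts were taken. They share arrays, so they are not independent of each other. It was tested on simulated data with known changes first. The number of arrays limits the precision. The members, lists and markers were chosen with earlier results of these data known. Named were all members, the called genes of the pathway lists (at most the 6 with the smallest p per contrast) and the 3 genes most like each called member. Alternatives were another offset, median centring, no filter and a stricter one, averaged probe sets, array weights, a trended prior, fits of the compared groups only, and leaving out each array.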

Additional observations from a re-analysis of the deposited data

Results flagged for a closer look

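The FoxO effect on Skil differed between the cell types by the test of the difference itself. FoxO-deficient myeloid progenitors averaged 269 and wild-type ones 739 (log2 change -1.46 ± 0.14), and FoxO-deficient LSK cells averaged 2626 and wild-type ones 2371 (0.15 ± 0.14). The effect in myeloid progenitors minus that in LSK cells was -1.6 ± 0.20 on the log2 scale (limma adjusted p = 0.00487). All 3 deficient arrays were lower than all 3 wild-type arrays in myeloid progenitors, and the LSK groups overlapped. Over the alternatives with all arrays the adjusted p lay between 7.73e-05 and 0.454, and without each array in turn between 0.000174 and 0.0252.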

How the results depend on the processing

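No paired analysis was possible because no number is shared between groups. The member counts moved as follows. The FoxO effect in myeloid progenitors was called for 2 members with an offset of 16, with array weights and with only the groups compared, against 1. Its difference between cell types was called for 2 with an offset of 16 and with array weights, and for 0 with median centring. The deficient comparison of cell types gave 9 with array weights and with only the groups compared, against 5. Leaving out each array gave 0 to 0 members in LSK cells, 1 to 2 in myeloid progenitors, 1 to 2 for the difference, 4 to 9 in the deficient and 4 to 7 in the wild-type comparison of cell types. For the 77 other pathway genes the ranges in that order were 0 to 0, 2 to 17, 1 to 11, 16 to 38 and 20 to 34. Those lists also gave 1 in LSK cells with no filter, 15 and 13 in myeloid progenitors with array weights and with only the groups compared, 5, 9 and 5 for the difference with the 60th percentile filter, array weights and the trended prior, 43 in the deficient comparison with array weights and 13 in the wild-type one with only the groups compared.

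Signs turned for uncalled changes. Median centring gave 0.18 for Smad2 in the wild-type comparison. Averaged probe sets gave 0.07, -0.56 and -0.01 for Smad2, Smad3 and Smad4 in myeloid progenitors, -0.4 and -0.43 for the differences of Tgfbr1 and Smad3, and -0.47 for Tgfb1 in the deficient comparison. In LSK cells array weights gave -0.12, -0.39, 0.02, -0.06 and -0.31 for Tgfb1, Tgfbr3, Smad3, Smad4 and Smad7, and leaving out each array gave -0.16 to 0.45, -0.41 to 1.11, -0.07 to 0.47 and -0.4 to 0.96 for Tgfb1, Tgfbr3, Smad4 and Smad7. The differences of Tgfbr1, Tgfbr3 and Smad4 were -0.09, 0.02 and 0.13 with array weights and -0.07 to 0.18, -1.48 to 0.05 and -0.4 to 0.14 over the left-out arrays. Smad4 in myeloid progenitors was then -0.02 to 0.11 and Smad2 in the wild-type comparison -0.22 to 0.1. Each of these ends that turned the sign came without array 2, except for Smad2 (array 1) and Smad4 in myeloid progenitors (array 11). The cause of these moves was not tested; array 2 had a weight of 0.0593 in the weighted fit. Over all genes, array weights called 148 in LSK cells and 1230 in myeloid progenitors, against 37 and 253, and the fits of compared groups only called 0 and 644. An offset of 16, median centring, no filter and the 60th percentile filter called 129, 22, 16 and 93 in LSK cells and 184, 72, 75 and 185 for the difference, against 37 and 118. In myeloid progenitors the first and last of these called 393 and 407. Array weights called 440 for the difference and 5444 in the deficient comparison, against 118 and 2695, and the compared groups alone called 4743 in that comparison and 1100 in the wild-type one, against 2942. Over the left-out arrays the counts of all genes were 10 to 124, 127 to 1172, 59 to 430, 1874 to 5123 and 1995 to 4668 in the order above. With 3 arrays a group, the error of Ltbp1 in LSK cells, near background, limits what could be called.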
